A study of Mus musculus with 12 samples.

Results

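The 9 genes that make up the feedback, receptor and transcription factor layer of the Wnt pathway were followed in mouse liver. They are Axin2, Rnf43, Wif1, Lgr5, Lgr4, Tcf7, Tcf7l2, Sp5 and Tbx3. They are the listed genes whose symbol stands alone beside a probe set in the looser gene lists that the authors deposited, which gave 11 probe sets of 9 genes, among 2517 probe sets of 2176 genes that carry 1 name and 32176 probe sets in all. Axin2 and Tcf7 have 2 probe sets each and the others 1. All 11 were named by the list that compares the double mutant with WT, and 3 of them, 1 each of Axin2, Sp5 and Tcf7, also by the list that compares Apc with WT, so a Wnt gene that did not differ there has no name here.

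The livers came from mice in 4 groups, with 3 arrays a group. ApcMyc mice were homozygous for floxed alleles of both Apc and Cmyc, Apc mice were homozygous for floxed Apc, Myc mice were homozygous for floxed Cmyc, and WT mice were the wild-type controls. All 4 groups, WT included, carried AhCre, a Cre recombinase gene driven by a promoter that beta-naphthoflavone switches on. Per the labels, all received 3 injections of 80 mg/kg beta-naphthoflavone in 1 day, and liver tissue was taken 4 days later. The labels give no age, sex or strain, nor do they state that the 3 arrays of a group came from separate animals, so p-values measure the spread between these arrays, which may be technical. The comparisons ask what loss of Apc does to these genes in the liver and whether that response depends on Myc.

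Wnt ligands act through Frizzled and Lrp receptors to stop a destruction complex, built on Apc and the Axin scaffolds, from degrading beta-catenin; stabilised beta-catenin then binds TCF and LEF factors on DNA and activates target genes. Several targets act back on the pathway. Axin2 rebuilds the destruction complex, Rnf43 removes Frizzled from the cell surface, Wif1 binds Wnt ligands outside the cell, and the R-spondin receptors Lgr4 and Lgr5 counter Rnf43. In the liver the pathway is known for setting the pericentral identity of hepatocytes around the central vein, and Myc is known as a Wnt target in the intestine.

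The deposited scores were turned back into signals, quantile normalized over all probe sets and compared as log2(signal + 16), so a difference of 1 is a doubling for bright probe sets and less than the true change for dim ones. Before normalization, ApcMyc arrays had median signals of 86.5 to 106.9, Apc arrays of 42.4 to 53.7, Myc arrays of 59.5 to 78.9 and WT arrays of 35.4 to 45.3. The titles of the ApcMyc and Myc arrays follow 1 style and those of the Apc and WT arrays another, and the dap labelling control (its 3′ probe set) was at 4.09 to 4.39 in the ApcMyc and Myc arrays and at 8.38 to 8.94 in the Apc and WT arrays, on the log2 scale. Comparisons that cross the styles (Myc minus WT, ApcMyc minus Apc and ApcMyc minus WT) therefore carry Myc deletion and array style together, which cannot be told apart, while Apc minus WT and ApcMyc minus Myc lie within a style. The Myc probe set read 25.3, 28.8 and 29.5 in ApcMyc livers, 408, 528 and 368 in Apc livers, 13.6, 28.2 and 23.5 in Myc livers and 78.5, 23.3 and 65.5 in WT livers. It rose by 2.73 in Apc against WT (SE 0.286, adjusted p = 5.85e-05) and was lower by 3.35 on the log2 scale in ApcMyc than in Apc (difference -3.35, adjusted p = 5.08e-05), whereas the difference in Myc against WT, -0.85, missed the threshold (adjusted p = 0.0833) with overlapping groups; without the second WT array it was -1.24 (adjusted p = 0.0117). Whether this probe set lies in the deleted part of Cmyc is not stated in the sources used here, and no probe set named Apc alone was among those analysed. Of 10 hepatocyte markers, 4 carried a name, and all were bright in every array, such as Apob (1885 to 2647 in ApcMyc, 9605 to 10381 in Apc, 7430 to 8874 in Myc and 8641 to 9906 in WT). None of the 5 intestine markers and none of the 4 B cell markers carried a name here.

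**Figure D1:**
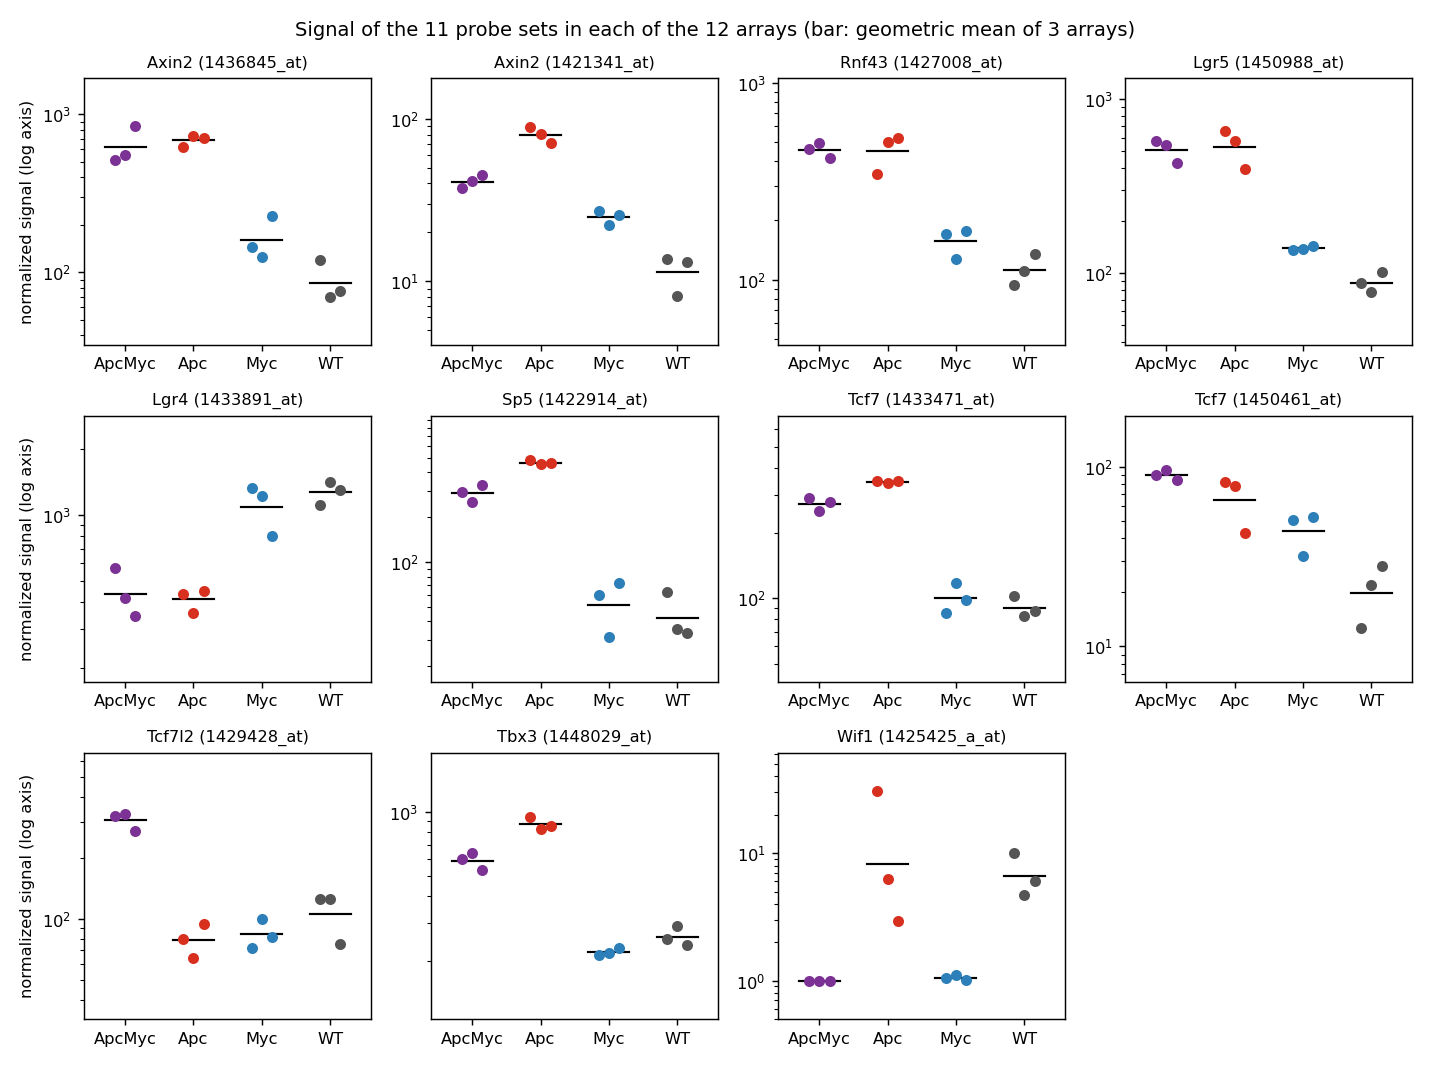
Normalized signal (log axis) of the 11 probe sets in each of the 12 arrays, with ApcMyc, Apc, Myc and WT from left to right; each point is an array and the bar is the geometric mean of 3. The 8 probe sets of 6 genes that rose in Apc against WT are high in the Apc arrays, the dimmer Axin2 probe set is lower in ApcMyc than in Apc, Lgr4 is low in both ApcMyc and Apc, Tcf7l2 is high in ApcMyc alone, and Wif1 is near the floor throughout.

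Axin2, the scaffold of the destruction complex and the best known feedback gene of the pathway, was high in every liver that lacked Apc. Its brighter probe set (1436845_at) read 516, 556 and 845 in ApcMyc livers, 618, 734 and 706 in Apc livers, 145, 126 and 228 in Myc livers and 120.2, 69.8 and 76.0 in WT livers. The ApcMyc and Apc arrays overlapped each other after normalization, and all lay above every Myc and WT array. The mean rose by 2.77 in Apc against WT (SE 0.253, adjusted p = 2.04e-05), a 6.84-fold rise with a 95% interval of 4.67 to 10, and by 1.85 in ApcMyc against Myc (SE 0.253, adjusted p = 0.000584), a 3.61-fold rise with an interval of 2.47 to 5.28. Levels ran in the order Apc, ApcMyc, Myc, WT; Apc and ApcMyc did not differ beyond their spread (-0.13 for ApcMyc minus Apc, adjusted p = 0.758), and Myc lay 0.79 above WT with no overlap of arrays but without passing the test (adjusted p = 0.0706). Since bulk liver was measured, fewer cells of a type and less RNA per cell cannot be told apart in this or any later result. The Axin2 gene lies at chr11:108917828-108950783 in GRCm38.p6, the build of the RefSeq table used for names; the array files name no build.

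The second Axin2 probe set (1421341_at) was dimmer and gave another picture of the double mutant. It read 37.5, 41.1 and 44.9 in ApcMyc livers, 88.6, 81.1 and 70.9 in Apc livers, 27.0, 22.1 and 25.6 in Myc livers and 13.7, 8.15 and 13.1 in WT livers. All 4 groups were separate, in the order Apc, ApcMyc, Myc, WT. It rose by 1.8 in Apc against WT (SE 0.149, adjusted p = 1.02e-05) but stood only 0.48 higher in ApcMyc than in Myc (adjusted p = 0.051). ApcMyc minus Apc was -0.75 (SE 0.149, adjusted p = 0.0045), a comparison that crosses the array styles. Before normalization these 2 groups overlapped, at 63.7, 58.1 and 63.6 in ApcMyc arrays and 59.9, 69.7 and 56.9 in Apc arrays. Across the 12 arrays the 2 probe sets had a Pearson correlation of 0.908, as a description. The probe sets thus disagree on the size of the response in the double mutant, and nothing in the files says which transcripts each one reads.

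Windows at RefSeq starts of Axin2 and Sp5 are shown, since both genes rose in Apc against WT. The Axin2 window lies inside the gene as given above and not at its first base. Each window runs from 250 bases before to 50 bases after a RefSeq start (GRCm38.p6), both on the plus strand; capitals mark the TCF and LEF heptamers CTTTGAA and CTTTGAT and also CTTTGTA and CTTTGTT, searched on both strands, and the E-box CACGTG. Axin2 is at chr11:108920099-108920398 and Sp5 at chr2:70474673-70474972.

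Axin2: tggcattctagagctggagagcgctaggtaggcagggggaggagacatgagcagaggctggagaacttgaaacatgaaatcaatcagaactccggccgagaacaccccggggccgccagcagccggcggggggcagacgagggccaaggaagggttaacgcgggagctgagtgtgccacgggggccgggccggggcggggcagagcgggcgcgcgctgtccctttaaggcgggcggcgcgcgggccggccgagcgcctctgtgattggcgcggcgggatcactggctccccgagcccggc
Sp5: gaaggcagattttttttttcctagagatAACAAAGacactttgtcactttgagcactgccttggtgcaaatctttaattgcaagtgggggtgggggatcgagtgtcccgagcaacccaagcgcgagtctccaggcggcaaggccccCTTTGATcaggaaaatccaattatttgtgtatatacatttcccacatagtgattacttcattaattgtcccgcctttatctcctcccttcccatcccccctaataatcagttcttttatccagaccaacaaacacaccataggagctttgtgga

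The Axin2 window held neither motif. The Sp5 window held CTTTGTT read on the minus strand (shown as its complement) at positions -222 to -216 from the start, and CTTTGAT on the plus strand at -104 to -98. Of the 9 genes 7 had windows in the table, 10 in all, and 2 of the 10 held a TCF or LEF heptamer, against 16.9% of all 32851 promoters. CACGTG, a sequence that Myc is known to bind, was in 1 of the 10, that of Wif1, against 7.15% of all. A match is a description of these letters only, and a window without one says nothing of more distant sites.

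Rnf43, a membrane ubiquitin ligase that takes Frizzled receptors off the cell surface, rose with loss of Apc. After normalization it stood at nearly the same level with and without Myc. Its probe set (1427008_at) read 462, 493 and 415 in ApcMyc livers, 346, 497 and 525 in Apc livers, 170.1, 128 and 177 in Myc livers and 93.7, 110.2 and 135 in WT livers. In these normalized values all arrays without Apc lay above all arrays with it, and the ApcMyc and Apc arrays overlapped. The rise was 1.86 in Apc against WT (SE 0.198, adjusted p = 6.64e-05) and 1.45 in ApcMyc against Myc (SE 0.198, adjusted p = 0.000586), or 3.63-fold and 2.73-fold. ApcMyc and Apc differed by 0.02 (95% interval -0.41 to 0.45), and Myc and WT by 0.43 (adjusted p = 0.192) with overlapping arrays. Both of these differences cross the array styles. Before normalization the signals were 773.7, 651.3 and 526.2 in ApcMyc arrays and 235.7, 421 and 401.5 in Apc arrays, without overlap.

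Wif1, the secreted inhibitor that binds Wnt ligands, was near the floor of the arrays and passed no test. Before normalization its signals sat at the floor of 1.0 in all 3 ApcMyc and all 3 Myc arrays, against 21.2, 4.7 and 2.2 in the Apc arrays and 6.7, 3.2 and 3.2 in the WT arrays. The Apc minus WT difference was 0.24 (adjusted p = 0.597) with overlapping groups, and it rests on 1 Apc array: without it the difference was -0.153. The ApcMyc minus Apc difference was -0.67 (adjusted p = 0.0933), and it passed on the deposited scores (adjusted p = 0.00925) and with a pseudocount of 1 (0.0284). No fold is given against groups at the floor, and the offset of 16 leaves little of a difference at this level. The authors' deposited table lists this probe set as lower in the double mutant than in WT, with a SAM score of -4.436.

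Lgr5, a receptor for R-spondins and a marker of Wnt-responsive stem cells and of pericentral hepatocytes, rose in every liver without Apc. The probe set (1450988_at) read 575, 542 and 428 in ApcMyc livers, 658, 576 and 394 in Apc livers, 136, 137 and 142 in Myc livers and 86.8, 77.1 and 101 in WT livers. The 2 groups without Apc overlapped after normalization, and neither reached down to the arrays with Apc. The rise was 2.40 in Apc against WT (SE 0.196, adjusted p = 9.49e-06), 5.27-fold with an interval of 3.93 to 7.08, and 1.77 in ApcMyc against Myc (SE 0.196, adjusted p = 0.000142), 3.42-fold with an interval of 2.54 to 4.59. The order was Apc, ApcMyc, Myc, WT, the first pair differing by -0.05 (ApcMyc minus Apc, adjusted p = 0.88) and the last by 0.57 (Myc minus WT, adjusted p = 0.0885) without overlap of arrays.

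Its relative Lgr4, which binds the same ligands and is broadly expressed in hepatocytes, went the other way. The probe set (1433891_at) read 571, 418 and 346 in ApcMyc livers, 435, 355 and 449 in Apc livers, 1328, 1211 and 796 in Myc livers and 1110, 1415 and 1294 in WT livers. Every array without Apc lay below every array with it. Lgr4 fell by 1.59 in Apc against WT on the log2 scale (SE 0.227, adjusted p = 0.000567), a 3.00-fold fall with an interval of 2.14 to 4.23, and the difference in ApcMyc against Myc was -1.29 (SE 0.227, adjusted p = 0.00298), a 2.44-fold fall. ApcMyc and Apc differed by 0.08 and Myc and WT by -0.22, both within the spread of overlapping arrays. Among the 9 genes Lgr4 was the 1 that fell in both comparisons for loss of Apc, so the 2 R-spondin receptors moved in opposite directions there.

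Tcf7, which encodes TCF1, a DNA-binding partner of beta-catenin that is also abundant in T cells, rose with loss of Apc. Its brighter probe set (1433471_at) read 289.8, 252 and 278 in ApcMyc livers, 346, 338 and 348 in Apc livers, 85.9, 118 and 98.6 in Myc livers and 102, 82.4 and 87.6 in WT livers. After normalization the 3 Apc arrays were tightly grouped and lay above the 3 ApcMyc arrays, which lay above all others. Apc against ApcMyc crosses the array styles, and before normalization their order was reversed. Those signals were 485.4, 326.2 and 357.9 in ApcMyc arrays and 235.6, 287.6 and 267 in Apc arrays. The rise was 1.76 in Apc against WT (SE 0.151, adjusted p = 1.40e-05) and 1.31 in ApcMyc against Myc (SE 0.151, adjusted p = 0.000186), or 3.38-fold and 2.49-fold, and ApcMyc minus Apc was -0.32 (adjusted p = 0.159). The dimmer probe set (1450461_at) read 89.2, 96.0 and 84.6 in ApcMyc livers, 82.1, 78.2 and 42.9 in Apc livers, 50.7, 31.9 and 52.2 in Myc livers and 12.7, 21.9 and 27.8 in WT livers, with ApcMyc and not Apc at the top. It rose by 1.17 in Apc against WT (adjusted p = 0.00442; 0.0667 with a suffix of the array titles, described further on, as a block) and by 0.81 in ApcMyc against Myc (adjusted p = 0.035), a call that was lost when any 1 of the 6 arrays of these groups was left out, with adjusted p between 0.0572 and 0.139, and on the deposited scores (0.0889) or with a pseudocount of 1 (0.0785). The 2 Tcf7 probe sets correlated at 0.741 over the 12 arrays. Of 16 T and NK cell markers 4 carried a name (Il7r, Nkg7, Gzma and Ccl5), and their summed signal was 334 to 730 in ApcMyc arrays, 121 to 180.1 in Apc arrays, 249 to 299 in Myc arrays and 114 to 213 in WT arrays. None of the 4 passed the test in Apc minus WT or in ApcMyc minus Myc, where 15.6% and 13.4% of all probe sets were called. In ApcMyc against Apc, which crosses the array styles, 3 of 4 were higher, where 20.9% of all were called (10.5% higher). Their part in the Tcf7 values was not tested.

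Tcf7l2, which encodes TCF4, another DNA-binding partner of beta-catenin, was higher in the double mutant than in any other group. It got its name through the list that compares the double mutant with WT and through no other, so it was chosen for its level in the ApcMyc arrays, which the differences given here and the test of the difference between responses use again. The probe set (1429428_at) read 322, 330 and 270.4 in ApcMyc livers, 79.9, 64.4 and 94.6 in Apc livers, 72.4, 100.4 and 81.5 in Myc livers and 126, 126 and 75.4 in WT livers. All 3 ApcMyc arrays lay above the other 9, which overlapped. It rose by 1.69 in ApcMyc against Myc (SE 0.206, adjusted p = 0.000268), 3.22-fold with an interval of 2.36 to 4.39, and was higher in ApcMyc than in Apc by 1.77 (SE 0.206, adjusted p = 0.000265). Apc minus WT was -0.37 (adjusted p = 0.264) and Myc minus WT -0.29 (adjusted p = 0.412), neither past the threshold. The call in ApcMyc against Myc lies within 1 title style, and it held in all 15 alternatives, at adjusted p of 0.00226 or less.

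Markers of other cell types are given beside these values; they too have names mostly through the list for the double mutant against WT, so their ApcMyc levels are a description of genes chosen for differing there. The summed signal of the 4 named endothelial markers of 10 (Cdh5, Kdr, Lyve1 and Pecam1) was 985 to 1124 in ApcMyc arrays, 314 to 507 in Apc arrays, 508 to 524 in Myc arrays and 253 to 621 in WT arrays. Of these, Lyve1 rose in ApcMyc against Myc (1.75, adjusted p = 0.00272) and the other 3 did not pass the test, where 13.4% of all probe sets were called. Pecam1 was highest in the Myc arrays (103.9 to 119.0, against 71.4 to 91.2 in ApcMyc). Cdh5 overlapped between them (28.65 to 47.7 in Myc and 38.7 to 45.8 in ApcMyc). The 4 named macrophage markers of 12 (Cd68, Marco, Lyz2 and Timd4) summed to 2017 to 2736 in ApcMyc, 597 to 919 in Apc, 1905 to 2528 in Myc and 578 to 1479 in WT arrays. The sums, of which Lyz2 was on average the largest part, were higher in both Myc-deleted groups, which also share 1 array style. In Myc against WT 3 of 4 were higher, where 9.11% of all probe sets were called (4.05% higher). Marco did not pass there, and its Myc (129.3 to 434.0) and WT (130.7 to 170.3) arrays overlapped. The 4 named hepatocyte markers summed to 17292 to 21273 in ApcMyc arrays, 32033 to 33544 in Apc arrays, 34269 to 35999 in Myc arrays and 39343 to 41647 in WT arrays, lowest in ApcMyc. In ApcMyc against Apc, Apoa1 and Apob were lower, Serpina1a and Pck1 did not pass, and the Pck1 mean was higher (2070.5 against 1636.4). In ApcMyc against Myc, Apob, Serpina1a and Pck1 were lower and Apoa1 did not pass. Apoa1 was the brightest probe set in every Apc and WT array, so quantile normalization gave it the same 15458 there. Its difference in ApcMyc against Apc is thus measured from that ceiling, which has no spread. The part of these shifts in the Tcf7l2 values was not tested.

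A second RefSeq start of Tcf7l2 is shown because it is the other member window with a TCF or LEF heptamer. It lies at chr19:55895071-55895370 on the plus strand (GRCm38.p6), inside the gene at chr19:55741797-55933659, and capitals mark CTTTGTT at positions -14 to -8 from that start.

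Tcf7l2: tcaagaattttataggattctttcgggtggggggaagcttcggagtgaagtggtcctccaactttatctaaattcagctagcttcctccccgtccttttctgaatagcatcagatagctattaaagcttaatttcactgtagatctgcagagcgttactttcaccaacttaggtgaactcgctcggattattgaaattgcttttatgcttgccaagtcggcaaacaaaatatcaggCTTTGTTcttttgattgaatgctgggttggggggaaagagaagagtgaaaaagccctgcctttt

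The window at the first Tcf7l2 start held none of the motifs searched. The files do not say which start the probe set reads.

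**Figure D2:**
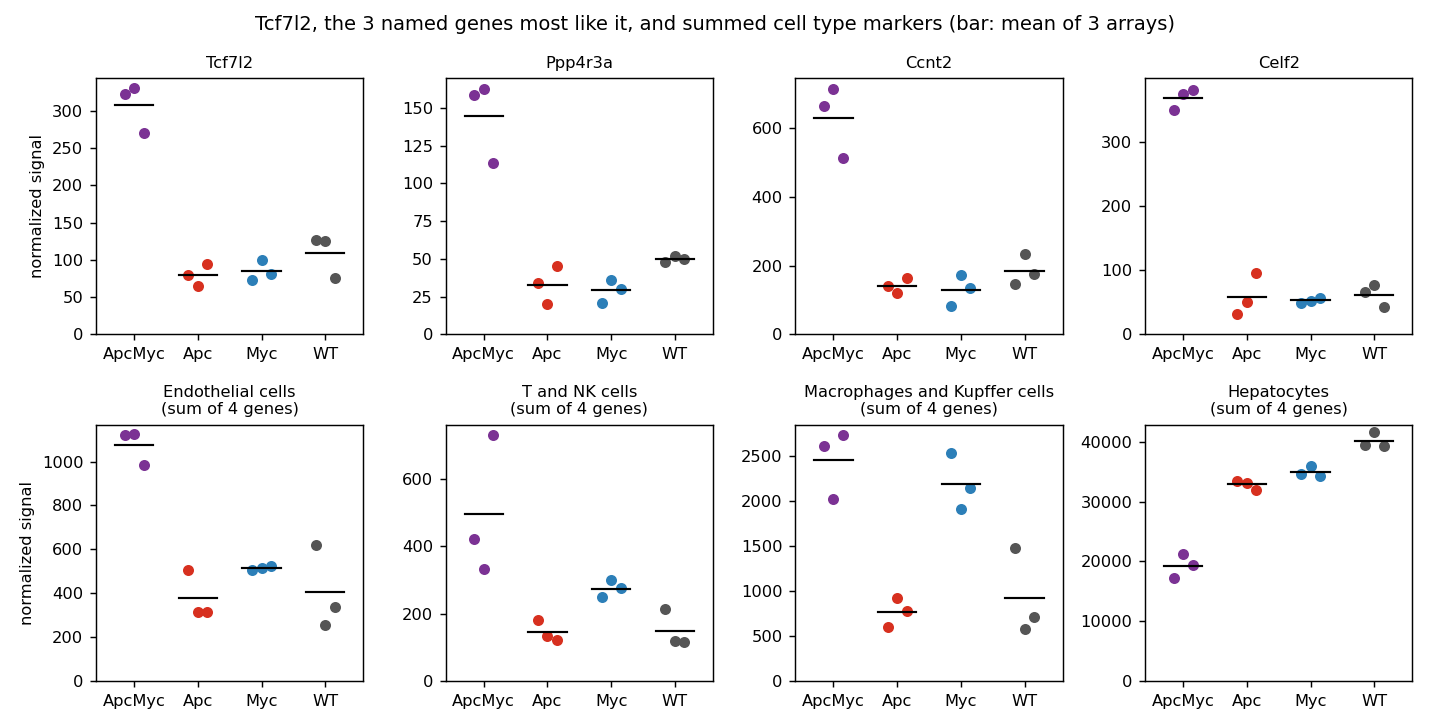
Normalized signal (linear axis from 0) of Tcf7l2 and the 3 named genes most like it (upper row), and the summed signal of 4 named markers of each of 4 cell types (lower row), by array, with ApcMyc, Apc, Myc and WT from left to right and a bar at the mean of 3. The 3 ApcMyc arrays stand above the other 9 in each upper panel and in the endothelial panel, and below them in the hepatocyte panel. The upper genes beside Tcf7l2 were picked for likeness to it, so their standing follows from that choice. The sums do not hold for each marker, as Pecam1 was highest in the Myc arrays.

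The named genes with profiles most like Tcf7l2 over the 12 arrays were Ppp4r3a, a phosphatase subunit (Pearson correlation 0.965), Ccnt2, a cyclin of transcription elongation (0.961), and Celf2, an RNA-binding protein (0.957), among 2167 genes searched. Celf2 read 349.8, 375 and 382 in ApcMyc livers, 31.3, 50.4 and 95.4 in Apc livers, 49.9, 52.7 and 57.1 in Myc livers and 65.5, 77.4 and 43.3 in WT livers. These correlations describe 12 arrays that share their groups, and no p is attached to them.

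Sp5, a zinc finger transcription factor and a target gene of Wnt signalling in many tissues, rose in Apc against WT by about as much as the brighter Axin2 probe set or more, depending on the offset (2.3 for Sp5 and 2.31 for Axin2 with a pseudocount of 64). Its probe set (1422914_at) read 297, 254 and 329 in ApcMyc livers, 481, 455 and 462 in Apc livers, 60.3, 31.5 and 72.7 in Myc livers and 62.9, 35.8 and 33.5 in WT livers. After normalization the Apc arrays lay above the ApcMyc arrays without overlap, and both lay above the overlapping Myc and WT arrays. Apc against ApcMyc crosses the array styles, and before normalization these groups overlapped. Those signals were 496.4, 329.9 and 421.4 in ApcMyc arrays and 329.8, 386 and 354 in Apc arrays. The rise was 3.04 in Apc against WT (SE 0.240, adjusted p = 6.82e-06), 8.21-fold with an interval of 5.73 to 11.8, and 2.17 in ApcMyc against Myc (SE 0.240, adjusted p = 0.000141), 4.49-fold with an interval of 3.14 to 6.44. ApcMyc minus Apc was -0.65 (adjusted p = 0.0739), which passed under 3 of 15 alternatives, and Myc minus WT was 0.22 (adjusted p = 0.61).

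Tbx3, a T-box transcription factor known as a beta-catenin target in liver tumours, rose with loss of Apc. After normalization it was lower in ApcMyc than in Apc. Its probe set (1448029_at) read 602, 636 and 533 in ApcMyc livers, 945, 826 and 859 in Apc livers, 213, 218 and 228 in Myc livers and 251, 289.9 and 237 in WT livers. The 4 groups did not overlap, in the order Apc, ApcMyc, WT, Myc. The rise was 1.7 in Apc against WT (SE 0.144, adjusted p = 1.26e-05) and 1.36 in ApcMyc against Myc (SE 0.144, adjusted p = 0.000104), or 3.25-fold and 2.57-fold. ApcMyc minus Apc was -0.56 (SE 0.144, adjusted p = 0.0167). Without the third ApcMyc array its adjusted p was 0.0505, and with only these 2 groups in the fit 0.0645. That comparison crosses the array styles, and the lower level in ApcMyc appears only after normalization. Before it the signals were 994, 839 and 673 in ApcMyc arrays and 679, 696 and 658 in Apc arrays. Myc minus WT was -0.22 (adjusted p = 0.371). A further probe set, listed with Tbx3 and LOC100047200 together and so not counted as a member, read 506, 596 and 566 in ApcMyc, 888, 687 and 663 in Apc, 267, 186 and 218 in Myc and 233, 265 and 281 in WT livers. Its ApcMyc minus Apc difference, -0.40, did not pass (adjusted p = 0.121).

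**Figure D3:**
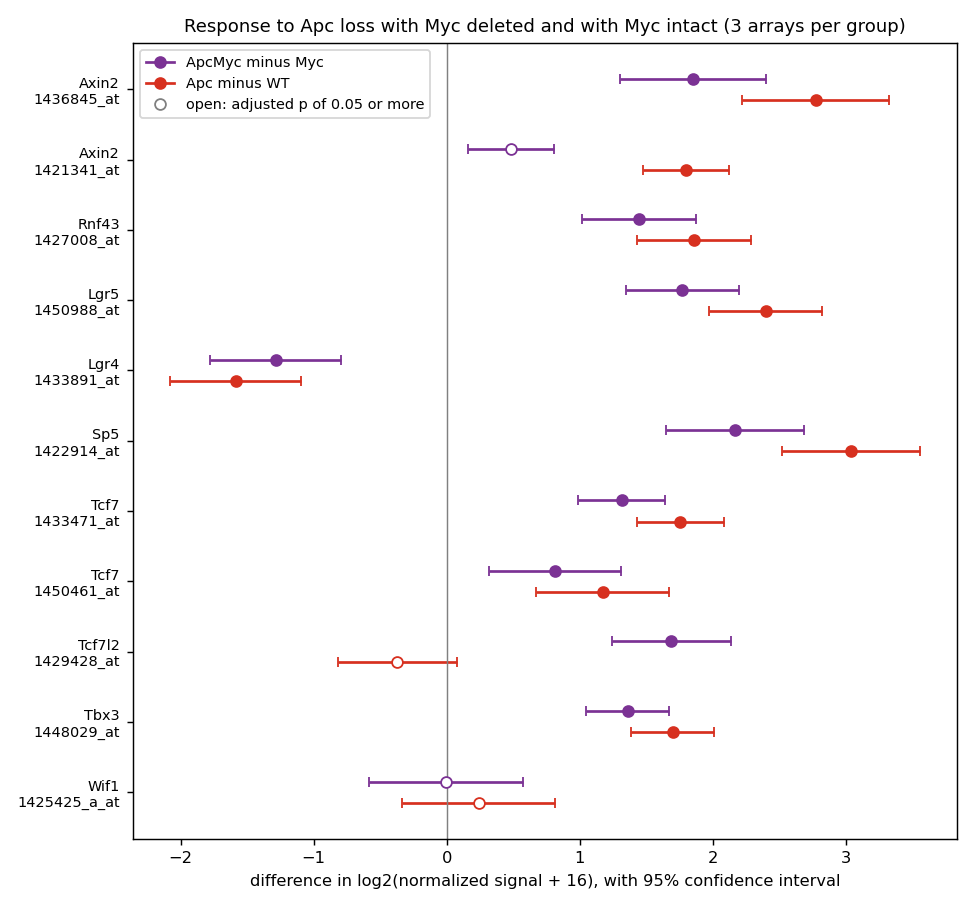
Difference in log2(normalized signal + 16) with loss of Apc for each probe set, with its 95% interval, as ApcMyc minus Myc (upper point of each pair) and Apc minus WT (lower point), from 3 arrays a group; open points have an adjusted p of 0.05 or more. Most pairs lie on the same side of 0 with ApcMyc minus Myc nearer to it, while Tcf7l2 is at 1.69 with Myc deleted and at -0.37 with Myc intact.

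In all, 8 of the 11 probe sets rose, 1 fell and 2 did not pass the test in Apc against WT, at a median difference of 1.76 against -0.02 over all 32115 probe sets tested. Over all probe sets 15.6% were called in either direction, 7.87% higher and 7.68% lower. The 8 that rose were those of Axin2 (both), Rnf43, Lgr5, Sp5, Tcf7 (both) and Tbx3. In ApcMyc against Myc again 8 rose and 1 fell, at a median of 1.36 against -0.02 over all, where 13.4% of all probe sets were called (6.64% higher, 6.76% lower). There Tcf7l2 rose and the dimmer Axin2 probe set did not pass. Of the calls over all probe sets in that comparison 49.5% were higher, against 33.5% with arrays scaled to a common median; the 9 member differences kept their sign under that scaling. The 2 comparisons share no arrays, but Apc minus WT uses the WT arrays and ApcMyc minus Myc the ApcMyc arrays of the comparison through which the members got their names. The authors' list for Apc against WT itself also named 3 of the 11. The counts and medians therefore describe probe sets chosen for differing and cannot be weighed against the values over all probe sets. In that comparison, ApcMyc minus WT, 9 probe sets rose and 1 fell, where 24.8% of all were called (12.2% higher and 12.6% lower), and nothing is read from that count.

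Within the WT and Apc titles, 3 of 6 end in a suffix whose meaning the labels do not give. Suffix-bearing arrays (2 Apc and 1 WT) and other arrays (1 Apc and 2 WT) were compared apart. Apc minus WT was 2.88 and 2.79 for the brighter Axin2 probe set and 3.30 and 2.88 for Sp5. It kept its sign for 9 of the 11 probe sets. The Apc and WT arrays of these 9 did not overlap, so no split of them could turn the sign, and nothing is read from that count. The exceptions were Tcf7l2 (0.173 and -0.819) and Wif1 (0.433 and -0.0619), the 2 that did not pass the test.

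With Myc alone deleted, of the 11 probe sets 1 was called in Myc against WT, the dimmer one of Axin2 (0.57, SE 0.149, adjusted p = 0.0341), where 9.11% of all probe sets were called (4.05% higher and 5.05% lower). Of the calls over all probe sets 44.5% were higher, against 59.4% with arrays scaled to a common median. That call was lost in 9 of 13 alternatives, and between 0 and 2 probe sets were called when 1 array was left out. Differences as large or larger, which did not pass, were 0.79 for the brighter Axin2 probe set, 0.73 for the dimmer Tcf7 probe set (adjusted p = 0.0668) and 0.57 for Lgr5. In ApcMyc against Apc, 3 of the 11 were called, where 20.9% of all probe sets were (10.5% higher and 10.4% lower): Tcf7l2 was higher, and Tbx3 and the dimmer Axin2 probe set were lower. The brighter Axin2 probe set, Rnf43, Lgr5 and Lgr4 differed by between -0.13 and 0.08 there, with 95% intervals of -0.68 to 0.42, -0.41 to 0.45, -0.48 to 0.37 and -0.41 to 0.57. Both comparisons cross the array styles. Before normalization the ApcMyc arrays lay above the Apc arrays, without overlap, for the brighter Axin2 probe set, Rnf43, Lgr5 and Lgr4.

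**Figure D4:**
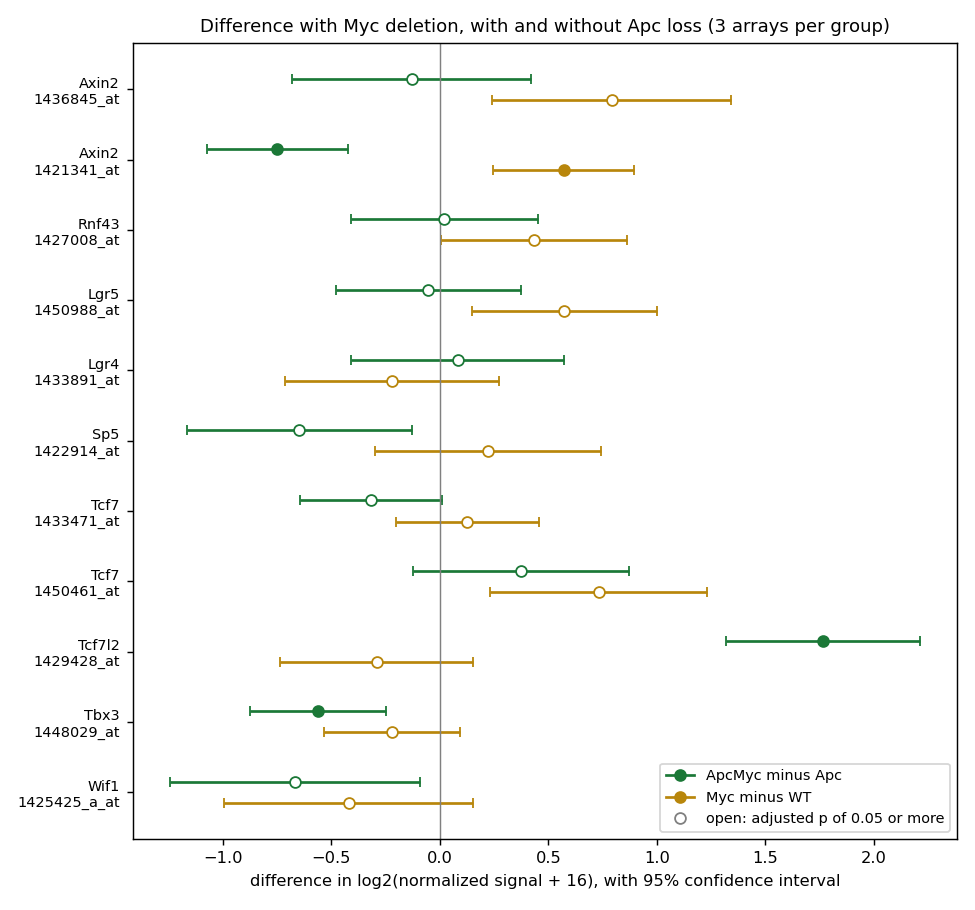
Difference in log2(normalized signal + 16) with deletion of Myc for each probe set, with its 95% interval, as ApcMyc minus Apc (upper point of each pair) and Myc minus WT (lower point), from 3 arrays a group; open points have an adjusted p of 0.05 or more. Tcf7l2 stands at 1.77 in ApcMyc minus Apc, and the filled points on the left are the dimmer Axin2 probe set at -0.75 and Tbx3 at -0.56.

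Whether the response to loss of Apc depended on Myc was tested as the difference between the response with Myc deleted (ApcMyc minus Myc) and that with Myc intact (Apc minus WT), in which an additive difference between array styles cancels. Of the 11 probe sets 2 passed, 1 in each direction, where 2.32% of all probe sets did (1.2% positive and 1.11% negative). Tcf7l2 responded by 2.06 more with Myc deleted (SE 0.291, adjusted p = 0.00924), and for the dimmer Axin2 probe set the response with Myc deleted minus that with Myc intact was -1.32 (SE 0.211, adjusted p = 0.0146). Both passed in every alternative in which they were tested, 20 for Tcf7l2 (adjusted p 0.00169 to 0.0341) and 18 for the Axin2 probe set (0.00992 to 0.0428). Those alternatives refit the same arrays. Both probe sets got their names only through the double mutant against WT, whose arrays this test uses again. Their count therefore cannot be weighed against the share over all probe sets. The other 8 probe sets called in Apc minus WT or in ApcMyc minus Myc did not pass; their estimates, each towards a smaller response with Myc deleted, were -0.92 for the brighter Axin2 probe set (adjusted p = 0.188), -0.87 for Sp5 (0.189), -0.63 for Lgr5 (0.246), -0.44 and -0.36 for Tcf7 (0.288 and 0.599), -0.41 for Rnf43 (0.458), -0.34 for Tbx3 (0.398) and, for the fall of Lgr4, 0.30 (0.662). Their 95% intervals reach from -1.7 for Axin2 to 1.0 for Lgr4. The mean of both Axin2 probe sets gave -1.12 (adjusted p = 0.0464). Over all probe sets 51.9% of the calls were positive, against 34.2% with arrays scaled to a common median.

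The 6 genes that rose and Lgr4 followed each other closely over the 12 arrays. For the brighter probe set of each gene, Axin2 had Pearson correlations of 0.967 with Sp5, 0.949 with Rnf43 and with Tcf7, 0.947 with Lgr5, 0.883 with Tbx3 and -0.978 with Lgr4. Tcf7l2 correlated with these 7 genes at no more than 0.383 in size. The groups themselves make most of this spread, so the values describe the shared pattern of 4 groups and carry no p. Among other named genes, the profile most like that of Axin2 was Myl12a, a myosin light chain (0.982), that most like Lgr5 was Slc16a7, a monocarboxylate transporter (0.990), and that most like Rnf43 was Akr1b7, an aldo-keto reductase (0.984). Sp5 and Tcf7 both had Glul, the glutamine synthetase of pericentral hepatocytes, among their 3 most alike genes (0.979 and 0.983), and Rhbg, an ammonium transporter of the same cells, was among the 3 of Axin2 (0.973). Lgr4 was most like Gas2 (0.980), Nit2 (0.973) and Cyp8b1, an enzyme of bile acid synthesis (0.969), and Tbx3 most like the unannotated B430203I24Rik (0.982).

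Of 29 listed beta-catenin targets of the liver 14 carried a name. Since a gene has a name only where the authors listed it as changed, mostly in the double mutant against WT, these 14 were chosen for having changed and their counts are a description. In Apc against WT 13 rose and 1, Egfr, fell (median 2.32, where 15.6% of all probe sets were called), and in ApcMyc against Myc 12 rose and 1 fell (median 1.71, where 13.4% were called); the other 15 listed genes were not seen. Rhbg rose by 4.15 and 3.02 in these comparisons, Slc1a2, a glutamate transporter, by 3.45 and 2.04, Glul by 2.41 and 1.64, Gstm2, a glutathione transferase, by 2.74 and 2.88, and its relative Gstm6 by 0.93 and 1.79. Lect2, a secreted hepatocyte protein, rose by 1.94 and 1.78, and Egfr, the epidermal growth factor receptor, stood at -2.73 and -2.11. Of the 14, 3 passed the test of the difference between responses, where 2.32% of all probe sets did (1.2% positive and 1.11% negative). They were Rhbg (-1.13, adjusted p = 0.0363), Slc1a2 (-1.42, adjusted p = 0.0272) and Slc1a4, an amino acid transporter (-1.60, adjusted p = 0.0154), all with the smaller response where Myc was deleted. This count too is a description of genes chosen for having changed.

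Of 109 other listed genes of the Wnt pathway 14 carried a name, by the same route, so their counts are a description too. In Apc against WT 6 were higher and 1 lower, where 15.6% of all probe sets were called. In ApcMyc against Myc 5 were higher and 4 lower, where 13.4% were called. Tnfrsf19, a receptor known as a Wnt target, rose by 2.46 and 1.41, Jun by 2.18 and 1.63, the cyclin gene Ccnd1 by 2.68 and 1.77 and the corepressor Tle1 by 0.83 and 0.82, the last missing the threshold with the title suffix as a block in Apc against WT (adjusted p = 0.0625) and with arrays scaled to a common median in ApcMyc against Myc (adjusted p = 0.0546). Ctnnbip1, whose product keeps beta-catenin from TCF factors, stood at -1.06 in Apc against WT (adjusted p = 0.000684) and -0.84 in ApcMyc against Myc (adjusted p = 0.004). Birc5, the mitotic gene for survivin, rose by 3.47 in Apc against WT (adjusted p = 0.00182) and differed by 1.83 in ApcMyc against Myc (adjusted p = 0.0597). Among the genes with the smallest p in ApcMyc against Myc were also Tle5, a short corepressor (-0.91, adjusted p = 0.0016), and Ryk, a Wnt receptor (-1.06, adjusted p = 0.00446); their differences in Apc against WT were -0.04 and -0.29, and Tle5 but not Ryk passed the test of the difference between them (-0.86, adjusted p = 0.048, and -0.76, adjusted p = 0.169).

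The authors' deposited table for Apc against WT gives SAM scores of 7.915 for Sp5 (q of 0%), 6.269 for the brighter Axin2 probe set (q of 1.687%) and 4.527 for the brighter Tcf7 probe set (q of 4.435%), and does not list the other 8. The authors' deposited table for the double mutant against WT gives scores between 1.719 (Tbx3) and 4.296 (Sp5) for the 9 probe sets listed as higher, and -2.005 for Lgr4 and -4.436 for Wif1. The authors' deposited table for Apc against the double mutant lists none of the 11, Tcf7l2 included.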

How the data were processed

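Liver RNA was read on 12 arrays, 3 a group; groups follow the genotype label. The labels name Trizol with RNeasy for total RNA and an Enzo BioArray kit for labelling, and do not name the array type or scanner software. The deposited values are scores made by the authors, as the values show: logged signals, centred near 0 and scaled to an SD near 1 within each array. The authors' SAM lists hold, per the file headers, a SAM score and a q-value per probe set from unpaired comparisons.

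Steps between the lowest scores fit a signal grid of 0.1 above a floor of 1.0, and linear signals were rebuilt from them (100% of those below 1000 within 0.01 of that grid). All 32176 probe sets were quantile normalized and analysed as log2(signal + 16). Without 61 controls, 32115 were fitted with limma 3.58.1 (R 4.3.3), as 4 group means. P-values are two-sided, with Benjamini-Hochberg adjustment over all probe sets in each of 6 comparisons and calls under 0.05; every adjusted p printed is limma's. The fit was tested on simulated data. Tables used Python 3.11.15, NumPy 2.4.6 and pandas 2.3.3.

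Gene names come from 3 of the SAM lists: of 2975 listed probe sets 2517 had 1 symbol, 204 several and 230 none, and 24 were controls. Against RefSeq (GRCm38.p6), which also gave the promoter windows, 1978 symbols were current, 376 synonyms and 163 unmatched. Lgr5 and Tbx3 had no window.

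The members and gene lists were chosen with earlier results of these data known. The text names all members, Myc, up to 6 genes with the smallest p per list (other Wnt genes, liver beta-catenin targets) in Apc minus WT and in ApcMyc minus Myc, and the 3 genes most correlated with a member, or fewer. Egfr and the markers named with values were chosen after these were seen. Apc and WT share replicate numbers, but same-numbered arrays did not deviate together (correlations 0.0627, 0.00557 and -0.0122), so they were not paired. Alternatives were median scaling, the scores themselves, pseudocounts of 1 and 64, a filter on low probe sets, an intensity trend, only the groups compared, gene means, a replicate block and leaving out each array. A block on the title suffix, and leaving out the first Apc and first WT arrays (highest of their group in the 18S rRNA controls), were added after the data were seen.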

Additional observations from a re-analysis of the deposited data

Results flagged for a closer look

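The response of Tcf7l2 to loss of Apc differed between Myc-deleted and Myc-intact livers by 2.06 on the log2 scale (adjusted p = 0.00924), higher in 3 of 3 ApcMyc arrays than in any other array. The response of the dimmer Axin2 probe set differed by -1.32 between the same settings (adjusted p = 0.0146), while the brighter Axin2 probe set gave -0.92 and did not pass. Both probe sets got their names through the double mutant against WT, whose arrays this test uses again. These were the 2 of 11 probe sets whose responses differed by the test of the difference itself, and no explanation for either was tested. Over all probe sets 2.32% passed that test, a share against which the count cannot be weighed, given how the 2 got their names.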

How the results depend on the processing

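The calls in Apc minus WT numbered 9 whichever array was left out, those in ApcMyc minus Myc 8, those in ApcMyc minus WT 10 and those in the difference between responses 2, against 9, 9, 10 and 2 with all arrays; ApcMyc minus Apc had 2 to 4 against 3. With the replicate number as a block Apc minus WT kept 8 of its 9 calls, losing the dimmer Tcf7 probe set (1.17, adjusted p = 0.0686), and Tle1, no member, was lost too (0.0578); it changed no other member's call. The title suffix as a block also left 8. The single call in Myc minus WT became 0 with a pseudocount of 64, 0 with only the groups compared, 2 with low probe sets left out and 0 to 2 with an array left out. The 2 calls of the difference between responses became 1 with low probe sets left out, where the dimmer Axin2 probe set was not tested.

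Signs turned only for differences that had not passed. In ApcMyc minus Apc, Rnf43 was -0.0263 with median scaling and -0.160 to 0.130 with an array left out, Lgr5 -0.261 to 0.0978, Lgr4 -0.107 to 0.242, the brighter Axin2 probe set -0.345 to 0.00308, and Tcf7 0.0287 as the mean of its probe sets. Lgr4 in Myc minus WT was -0.362 to 0.00126. Wif1 in Apc minus WT was -0.0574 without the first Apc and WT arrays and -0.153 to 0.499 with an array left out, and -0.504 to 0.148 in the difference between responses; on both forms of the scores and with a pseudocount of 1 Wif1 passed, as lower, in ApcMyc minus Apc and in ApcMyc minus WT (adjusted p 0.00925 to 0.0447). The brighter Axin2 probe set passed in Myc minus WT under 4 settings and without the first WT array (adjusted p 0.0309 to 0.0424).

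Over all probe sets, Apc minus WT had 4996 calls, against 3151 with these groups alone, 2161 with the replicate block and 2100 with the suffix block. The difference between responses had 744, against 149 to 194 on the scores or with a pseudocount of 1, 1165 to 1586 with median scaling, low probe sets left out, a trend or a pseudocount of 64, and 159 to 929 with an array left out. ApcMyc minus Myc had 4302 (2539 to 3710 with an array left out) and Myc minus WT 2925 (1249 to 2564), of which 44.5% were higher, against 59.4% with median scaling. The cause of these shifts was not tested. The number of arrays (3 a group) and the floor of dim probe sets limit the precision.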

Other observations

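Markers of other cells have a name only where the authors listed them as changed, mostly in the double mutant against WT, so the values here describe genes chosen for differing. Of 6 red cell markers 3 carried a name (Alas2, Car1 and Klf1). All 3 fell with loss of Apc whether Myc was intact or deleted. With Myc intact, 7.68% of all probe sets were called lower, and with Myc deleted 6.76% were. Given how the 3 got their names, their count cannot be weighed against these shares. The summed signal of the 3 was 278 to 443 in ApcMyc arrays and 204 to 298 in Apc arrays. It was 683 to 863 in Myc arrays and 1159 to 1309 in WT arrays. Of 7 cholangiocyte and progenitor markers only Prom1 carried a name, and it rose by 3.21 in Apc against WT (adjusted p = 8.47e-05) and by 3.39 in ApcMyc against Myc (adjusted p = 9.27e-05). Of 9 stellate cell and fibroblast markers only Pdgfrb did, and it fell by 1.32 in Apc against WT (adjusted p = 0.0052), while its difference in ApcMyc against Myc was -0.65 (adjusted p = 0.132). The part of these shifts in the values of the Wnt genes was not tested.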
